A study of Rattus norvegicus with 48 samples.

Results

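Leukocyte adhesion in rat primary cortical cultures was followed through 9 genes, taken by their symbols from the deposited table of 30211 genes. They were the immunoglobulin-type ligands Icam1 and Vcam1, the selectins Selp and Sele, the integrin subunits Itgb2, Itgal, Itgam and Itga4, and the hyaluronan receptor Cd44. All 9 were in the table, and 9 of 9 were above the minimum of 0.5 CPM (reads per 1e6 reads on genes, after TMM scaling) in at least 3 libraries that left 15890 genes for testing. The cultures were mixed cortical cells from 18-day fetuses of Sprague-Dawley rats, grown for 21 days, and were compared in 16 groups of 3 RNA-seq libraries, 48 in all. Control cultures received none of the agents that the labels name. The other groups received cocaine (25 µM, 24 h; Cocaine), the HIV-1 transactivator protein Tat (Tat 1-86, 6 ng/mL, 48 h; Tat), or Tat and cocaine (Tat-Cocaine). A further 4 compounds were given singly, each on its own, in Tat cultures and in Tat-Cocaine cultures. They were 4OI (250 µM), a cell-permeable ester of itaconate, Amlexanox (25 µM), an inhibitor of the kinases TBK1 and IKKε, Tazemetostat (3 µM), an inhibitor of the histone methyltransferase EZH2, and Senicapoc (1 µM), a blocker of the potassium channel KCa3.1. The cultures had no blood supply. The labels do not say whether the libraries of a group came from separate cell preparations, and the error of a test is therefore the spread between these libraries.

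Leukocytes leave the blood in steps. Selectins on endothelium and platelets (P-selectin, from Selp, and E-selectin, from Sele) let the cells roll, chemokines then switch integrins to their binding form, and the integrins hold to ICAM-1 and VCAM-1 on the vessel wall. The β2 chain encoded by Itgb2 pairs with αL (Itgal) to form LFA-1, and with αM (Itgam) to form Mac-1, also known as CD11b and complement receptor 3. Both bind ICAM-1, whereas α4 (Itga4) pairs with β1 or β7 chains and binds VCAM-1. In brain tissue the β2 integrins are carried by microglia and other myeloid cells, and astrocytes can make ICAM-1 and VCAM-1 under inflammatory cytokines.

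The libraries held 17.5 to 29.1 M reads on genes. The labels give the cell type as neuron, but markers of several cell types were present. The summed level of 8 neuronal markers was 884 to 4009 CPM, of 7 astrocyte markers 5410 to 13240 CPM and of 12 myeloid markers 602 to 5569 CPM. The 11 endothelial markers added up to 10.3 to 23.4 CPM. Among them Cldn5 was at 0 in 25 libraries, Emcn in 34 and Erg in 20, none of these above 0.258 CPM, while Egfl7 (1.95 to 8.33 CPM), Esam (0.981 to 7.10 CPM), Vwf (0.591 to 8.08 CPM), Cdh5 (up to 5.72 CPM) and Kdr (up to 1.70 CPM) were above 0 in every library. The 8 lymphocyte markers added up to at most 0.447 CPM. The 7 neutrophil markers added up to 2.74 to 102 CPM, most of it from Csf3r, which microglia also express and which reached 92.6 CPM. S100a8 was above 0 in every library (up to 9.41 CPM) and Camp in all but 3 (up to 2.18 CPM), whereas Elane was at 0 in 47 libraries, Ngp in 34, S100a9 in 27 and Mpo in 20. Several libraries differed from the others of their group in these sums. Cocaine replicate 3 had 22860 CPM of 6 oligodendrocyte markers against 1485 and 1078 CPM, and Tat-Cocaine-4OI replicate 2 had 1837 CPM of the myeloid markers against 602 and 743 CPM. The myeloid sum was also higher in 4OI replicate 2 (2491 CPM against 1053 and 1137 CPM), the sum of 7 fibroblast and pericyte markers in Control replicate 3 (463 CPM against 96.8 and 118 CPM), and the neuronal sum in Cocaine replicate 1 (3289 CPM against 1311 and 1152 CPM).

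Tat raised 7 of the 9 genes and lowered 0 (FDR under 0.05 in limma). Over all genes tested, 21.3% passed in the same comparison. Icam1 was at 25.8, 69.9 and 45.4 CPM in Control and at 202, 239 and 154 CPM in Tat cultures. Every Tat library was above every Control library, and the log2 fold change was 2.15 ± 0.38 (SE, n = 3 libraries per group, FDR = 6.46e-05). The share of all genes whose libraries separate in this way was not computed, here or in the comparisons below. Vcam1 was at 122, 334 and 91.7 CPM in Control and at 641, 674 and 592 CPM with Tat. Its groups did not overlap either, although Control replicate 2 was higher than the other Control libraries, and the log2 fold change was 2.03 ± 0.48 (FDR = 0.00214). Cd44, the receptor for the matrix sugar hyaluronan, was at 106, 125 and 89.8 CPM in Control and at 456, 592 and 551 CPM with Tat. It had the smallest FDR of the 9 genes (log2 fold change 2.32 ± 0.23, FDR = 3.60e-09).

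The subunits of the β2 integrins rose as well. Itgal, the αL chain of LFA-1, was at 23.5, 72.8 and 46.2 CPM in Control and at 408, 608 and 259 CPM with Tat, a log2 fold change of 3.21 ± 0.56 (FDR = 6.99e-05) that was the largest among the 9. Itgam, the αM chain of Mac-1, was at 62.8, 102 and 70.8 CPM in Control and at 199, 352 and 192 CPM with Tat (log2 fold change 1.62 ± 0.39, FDR = 0.00269). Itgb2, their shared β chain, was at 30.5, 67.3 and 36.1 CPM in Control and at 153, 196 and 102 CPM with Tat (log2 fold change 1.78 ± 0.44, FDR = 0.00363). In these 3 genes no Tat library fell within the range of the Control libraries, and replicate 2 was the highest of both groups. The α4 chain did not follow them. Itga4 was at 0.652, 1.47 and 1.32 CPM in Control and at 1.98, 1.79 and 0.473 CPM with Tat, with overlapping groups and a log2 difference of 0.14 (95% interval -0.54 to 0.82, FDR = 0.790). The 7 rises passed the threshold in every fit from which 1 library of either group had been left out. The 3 neutrophil markers that could be tested were higher with Tat as well (median log2 difference 2.71), with a summed level of 4.10 to 13.4 CPM in Control and 31.96 to 91.8 CPM in Tat cultures, and of 12 myeloid markers 2 were higher and 1 lower (median 0.44). Astrocyte markers went the other way, with 0 of 7 higher and 3 lower (median -0.14). The part of these markers in the rises with Tat was not tested.

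**Figure D1:**
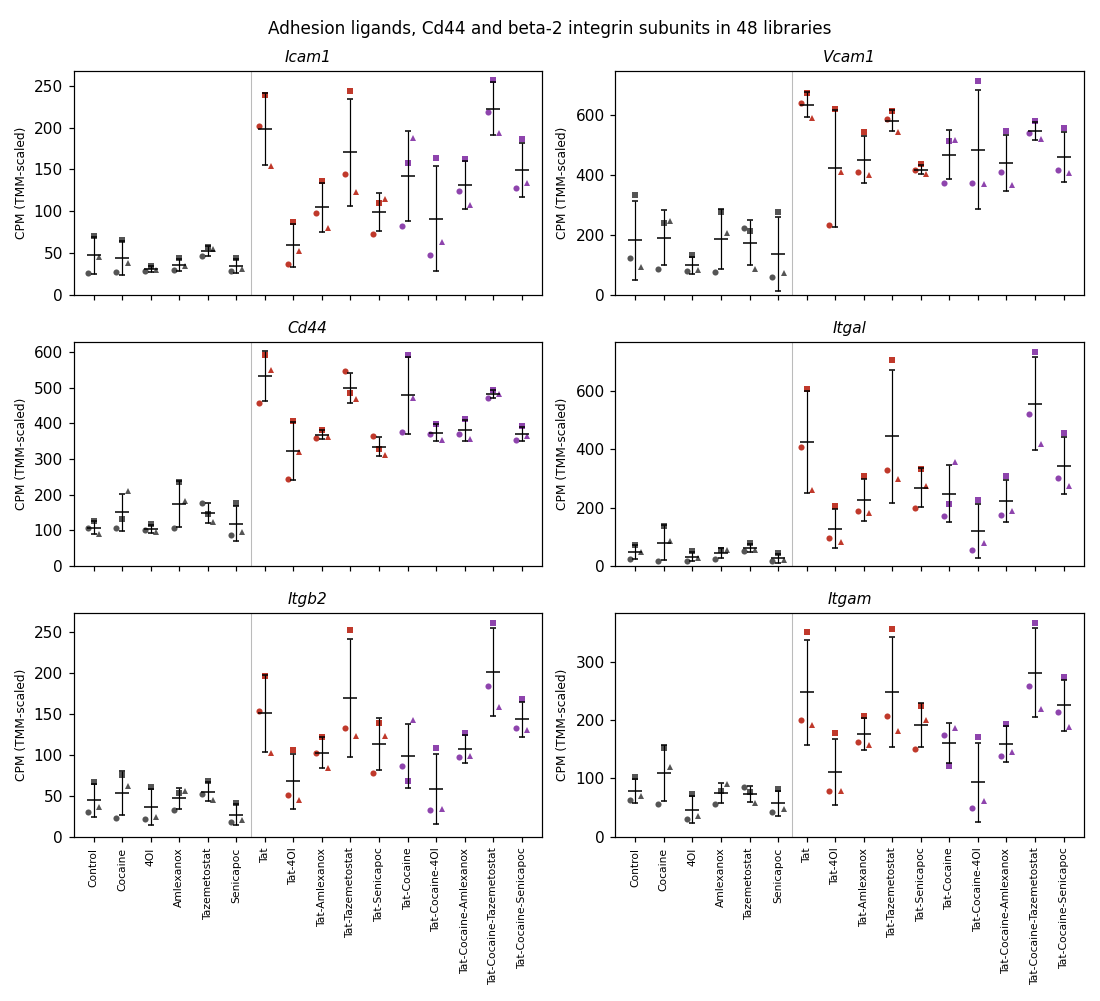
CPM of Icam1, Vcam1, Cd44, Itgal, Itgb2 and Itgam in each library by group (circles, squares and triangles are replicates 1, 2 and 3, bars are mean ± SD, n = 3; grey without Tat, red with Tat, purple with Tat and cocaine). The 30 libraries with Tat had 243 to 592 CPM of Cd44, all above the highest of the 18 libraries without Tat, at 235 CPM.

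Of the selectins, Selp passed the test and Sele did not. Selp reached the minimum of 0.5 CPM only in libraries with Tat, since the 18 without Tat had at most 0.0944 CPM. It therefore entered the test through the groups in which it was high, and this limit applies to each of its calls. Selp was at 0.0383, 0 and 0 CPM in Control, or 1 read in 3 libraries, and at 0.913, 0.552 and 0.851 CPM in Tat cultures, or 48 reads in 3 libraries. The ratio of the summed reads, scaled for library size, was 52.5, with a 95% counting interval of 8.98 to 2117 that covers counting error only. The fitted log2 fold change of 1.30 ± 0.32 (FDR = 0.00313) depended on the pseudocount, and ranged from 0.80 to 2.94 over the alternatives in which the gene could be tested. Sele was at 0.345, 0.417 and 0.272 CPM in Control and at 0.355, 0.230 and 0.213 CPM with Tat, and its groups overlapped (log2 difference -0.14, 95% interval -0.61 to 0.32, FDR = 0.680). It did not exceed 1.01 CPM in any library.

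Since several of these genes moved together, the 250 bases before the start of each gene were searched for 5 short motifs in the RefSeq promoter table of the build GRCr8. The table held 6 of the 9 genes, Icam1, Vcam1, Sele, Itgam, Itga4 and Cd44. Both strands were searched for the NF-κB site by its consensus (kappa B), AP-1 (TGANTCA), the ETS core read by PU.1 (GAGGAA), the core of the antioxidant response element (TGACNNNGC) and the E-box (CACGTG). Vcam1 held a kappa B match 93 bases before its start, as did 3.54% of the 33469 promoters in the table. Itgam held an ETS core at 151 bases before the start and another, on the other strand, at 39 bases, and 23.3% of all promoters held at least 1. Cd44 held an antioxidant response element core on the other strand at 108 bases, a match found in 10.1% of promoters. The promoters of Icam1, Sele and Itga4 held 0 matches. AP-1, present in 6.34% of promoters, and the E-box, present in 5.59%, were matched in 0 of the 6, and no match overlapped another. A match is a stretch of letters and not a measured binding site. Only exact matches to a pattern were counted, so 0 matches does not show that a promoter lacks a variant of the site. The sequences of 4 genes that rose with Tat are given 5′ to 3′ on the strand of the gene, from chr2:206742784-206743033 (minus strand), chr1:192089342-192089591 (plus), chr3:109699425-109699674 (minus) and chr8:27829595-27829844 (plus), with the matches in capitals.
Vcam1: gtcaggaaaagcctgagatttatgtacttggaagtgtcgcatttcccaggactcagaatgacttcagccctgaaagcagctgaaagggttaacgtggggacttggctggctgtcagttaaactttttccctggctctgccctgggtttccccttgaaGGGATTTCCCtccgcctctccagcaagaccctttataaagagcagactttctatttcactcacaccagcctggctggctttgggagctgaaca
Itgam: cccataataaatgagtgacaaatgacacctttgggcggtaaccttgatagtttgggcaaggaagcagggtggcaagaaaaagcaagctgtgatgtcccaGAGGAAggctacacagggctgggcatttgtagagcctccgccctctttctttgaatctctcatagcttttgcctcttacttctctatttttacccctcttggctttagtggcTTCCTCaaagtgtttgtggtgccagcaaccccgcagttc
Cd44: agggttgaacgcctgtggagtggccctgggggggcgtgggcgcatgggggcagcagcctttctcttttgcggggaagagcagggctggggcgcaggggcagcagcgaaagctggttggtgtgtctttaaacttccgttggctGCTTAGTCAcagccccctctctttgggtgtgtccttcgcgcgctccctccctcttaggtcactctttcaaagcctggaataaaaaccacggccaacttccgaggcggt
Icam1: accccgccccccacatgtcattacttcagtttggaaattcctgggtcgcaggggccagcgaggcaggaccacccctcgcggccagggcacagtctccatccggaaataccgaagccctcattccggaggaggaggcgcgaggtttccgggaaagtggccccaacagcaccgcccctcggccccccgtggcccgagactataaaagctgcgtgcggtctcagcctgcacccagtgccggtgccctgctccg

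Tat and cocaine together were compared with Control to see the response under the combined insult. In Tat-Cocaine cultures 5 of the 9 genes were higher than in Control, against 14.9% of all genes called in either direction. Cd44 was at 375, 592 and 471 CPM (log2 fold change 2.15 ± 0.23, FDR = 3.73e-08) and Itgal at 171, 212 and 358 CPM (2.44 ± 0.56, FDR = 0.00257). Icam1 was at 82.4, 157 and 187 CPM (log2 fold change 1.62 ± 0.38, FDR = 0.00269) and Vcam1 at 374, 514 and 517 CPM (1.57 ± 0.48, FDR = 0.0224). Selp was at 0.170, 0.491 and 1.33 CPM, or 49 reads (log2 fold change 1.06 ± 0.32, FDR = 0.0213). All 5 were above Control in every library. So were Itgam, at 174, 121 and 186 CPM, and Itgb2, at 86.0, 67.6 and 142 CPM. This is a description, since the share of all genes that separate in this way was not computed. Itgam and Itgb2 did not pass (FDR = 0.0707 and 0.0763). In this comparison same-numbered libraries deviated together, and in a fit with the replicate number as a block these genes passed too (FDR = 0.00716 for Itgam and 0.00872 for Itgb2), which made 7. The block was fitted to all 48 libraries and is not a paired test of these 2 groups. In Tat-Cocaine against Tat same-numbered libraries deviated in opposite directions (r = -0.359, -0.145 and -0.779). A factor shared by a replicate number was therefore not shown, and the calls with the block are given as an alternative only. In the fit without the block, the count was 3 without Control replicate 3 and 3 without Tat-Cocaine replicate 3. Vcam1 lost its call without Control replicate 1 or 3 or Tat-Cocaine replicate 2 or 3 (FDR = 0.0715 to 0.140), and Selp without Control replicate 2 or 3 or Tat-Cocaine replicate 3 (FDR = 0.0532 to 0.206). Cd44 and Itgal passed in every alternative.

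Cocaine itself moved none of the 9 genes past the threshold. In Cocaine against Control limma called 0 of 9, with 0 at an unadjusted p under 0.05 and 0.201% of all genes called. In Tat-Cocaine against Tat it called 0 of 9, with 0 at an unadjusted p under 0.05 and 0.0189% of all genes called. Differences of moderate size were not excluded by these libraries. The 95% interval of the log2 difference between Cocaine and Control ran from -0.85 to 0.68 for Icam1 and from -0.70 to 1.59 for Itgal. In Cocaine against Control the count was also 0 without Cocaine replicate 1 or without Cocaine replicate 3, the library rich in oligodendrocyte markers. Averaged over the 5 backgrounds in which cocaine was added to Tat, 0 of 9 genes passed against 4.55% of all genes, and 1 had an unadjusted p under 0.05. That gene was Sele, with a log2 difference of -0.33 ± 0.10 (FDR = 0.0536) at levels of 0 to 0.744 CPM. Sele passed in 7 of 30 fits that left out 1 library (FDR = 0.0212 to 0.0478 in those 7).

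The comparison of Tat-4OI with Tat asks which of the Tat-raised genes were lower when the itaconate ester was present. Here 5 of 9 genes were lower and 0 higher, against 15.6% of all genes called. Icam1 was at 36.9, 87.5 and 52.9 CPM in Tat-4OI cultures, against 154 to 239 CPM with Tat alone. The log2 fold change was -1.80 ± 0.38 (FDR = 0.00103), and it passed in all 17 alternatives (log2 fold change -2.13 to -1.51). Selp was at 0.161, 0.108 and 0 CPM, or 5 reads against 48. The ratio scaled for library size was 0.113 (95% counting interval 0.0350 to 0.282), and the FDR in limma was 0.0162. Itgal was at 96.4, 204 and 80.4 CPM (log2 fold change -1.78 ± 0.56, FDR = 0.0281) and Itgam at 77.9, 177 and 79.4 CPM (-1.20 ± 0.39, FDR = 0.0330). Cd44 was at 243, 405 and 321 CPM (log2 fold change -0.74 ± 0.23, FDR = 0.0262). In these 5 genes every Tat-4OI library was below every Tat library, a description without the share of all genes that separate in this way. Itgb2, at 50.7, 106 and 45.3 CPM, overlapped Tat by 1 library and did not pass (log2 difference -1.21, 95% interval -2.11 to -0.31, FDR = 0.0584). Vcam1, at 233, 623 and 411 CPM, ranged from far below to within the Tat libraries (log2 difference -0.70, 95% interval -1.67 to 0.27, FDR = 0.315).

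The calls other than Icam1 depended on single libraries. Leaving out Tat replicate 1 gave 3 calls, and leaving out Tat replicate 2 gave 2. On the other side, 2 calls were left when Tat-4OI replicate 1 was dropped and 1 when Tat-4OI replicate 3 was dropped. Without Tat-4OI replicate 3, Icam1 was the gene that still passed, and Selp had FDR = 0.0799, Itgal 0.129, Itgam 0.143 and Cd44 0.0693. Markers of myeloid cells, of fibroblasts and pericytes, and of neutrophils moved in the same direction. The myeloid sum was 1984 to 3507 CPM in Tat and 870 to 1923 CPM in Tat-4OI cultures, and of the 12 markers 0 were higher and 2 lower, with a median log2 difference of -0.96. Of 7 fibroblast and pericyte markers 1 was lower (median -1.20), with sums of 186 to 444 CPM in Tat and 85.2 to 250.5 CPM in Tat-4OI cultures, and 2 of 3 neutrophil markers were lower (median -1.66). Astrocyte markers went the other way, with 1 of 7 higher and 0 lower (median 0.36), and of 8 neuronal markers 0 passed (median 0.59). The part of these shifts was not tested. In bulk RNA fewer myeloid cells and less RNA of these genes per cell cannot be told apart.

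With 4OI, Tat still raised a smaller set. In Tat-4OI against 4OI 3 of 9 genes were higher, where 5.18% of all genes were called. Vcam1 was at 80.8, 132 and 82.3 CPM with 4OI alone and had a log2 fold change of 2.02 ± 0.48 (FDR = 0.00935). Cd44 was at 100, 118 and 96.2 CPM with 4OI alone (log2 fold change 1.597 ± 0.23, FDR = 3.02e-05), and Itgal at 17.8, 49.5 and 26.7 CPM (2.00 ± 0.56, FDR = 0.0295). Icam1, at 27.95, 34.8 and 29.3 CPM with 4OI alone, was higher in each Tat-4OI library but did not pass (log2 difference 0.85, 95% interval 0.09 to 1.61, FDR = 0.196). The count was 1, Cd44, without 4OI replicate 1, 4OI replicate 3 or Tat-4OI replicate 2, and 4 without 4OI replicate 2. The difference between the Tat response with 4OI and that without it was tested as an interaction. It passed in 0 of 9 genes, against 0.497% of all genes, and 3 had an unadjusted p under 0.05. These were Icam1 (log2 difference of the responses -1.30, 95% interval -2.38 to -0.23, FDR = 0.332), Selp (-1.11, FDR = 0.333) and Cd44 (-0.72, FDR = 0.387). For Vcam1 the difference of the responses was -0.01, with an interval of -1.38 to 1.37. A changed response to Tat under 4OI was therefore not shown for any of the 9.

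With cocaine present as well, 4OI lowered none of the 9 genes past the threshold. In Tat-Cocaine-4OI against Tat-Cocaine limma called 0 of 9, where 7.36% of all genes were called and 5 of the 9 had an unadjusted p under 0.05. Icam1 was at 47.4, 163 and 62.6 CPM in Tat-Cocaine-4OI cultures (log2 difference -0.77, FDR = 0.230). Itgal was at 54.9, 227 and 77.2 CPM (-1.25, FDR = 0.188), Itgam at 48.7, 171 and 61.0 CPM (-0.98, FDR = 0.127), Itgb2 at 32.7, 108 and 34.4 CPM (-0.91, FDR = 0.229) and Selp at 0.0468, 0.292 and 0 CPM (-0.83, FDR = 0.111). Replicate 2 was the highest library for each of these, and it was the one with the most myeloid markers. Without it 3 genes passed, in a fit for which the share of all genes called is not given here. These were Icam1 (log2 fold change -1.29, FDR = 0.0285), Itgam (-1.52, FDR = 0.0124) and Itgb2 (-1.47, FDR = 0.0428). Without Tat-Cocaine replicate 1 the count was 1. Vcam1 was at 373, 714 and 370 CPM, with a log2 difference of -0.0041 and a 95% interval of -0.97 to 0.97. Of the myeloid markers 0 were higher and 4 lower (median -0.72), and of the fibroblast and pericyte markers 2 were lower (median -0.85). Astrocyte markers went the other way, with 3 of 7 higher and 0 lower (median 0.58). The part of these markers in the values was not tested.

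**Figure D2:**
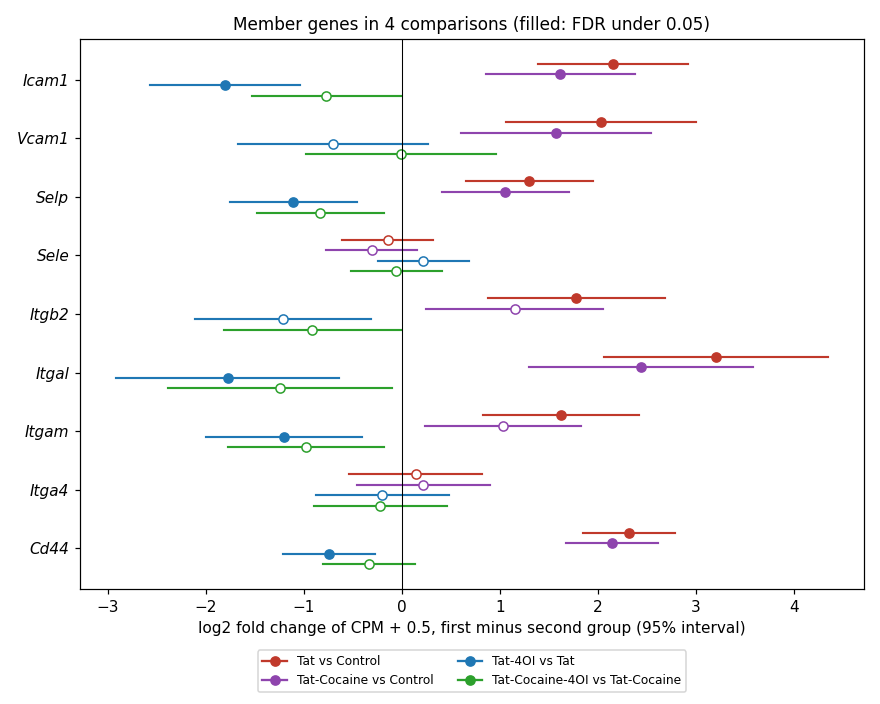
Log2 fold change of CPM + 0.5 for the 9 genes in 4 comparisons, with 95% intervals from limma (filled points, FDR under 0.05; open points, above it). Tat has 7 filled points to the right of 0 and Tat-Cocaine 5, 4OI has 5 to the left of 0 in Tat cultures and 0 in Tat-Cocaine cultures.

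To set the β2 integrins beside the amount of myeloid RNA, each was divided by the summed CPM of the 12 myeloid markers in the same library, as a description without a test. Per 100 CPM of markers, Itgb2 was at 1.57 to 2.55 in the 18 libraries without Tat and at 3.44 to 7.72 in the 30 libraries with Tat. Itgal was at 1.32 to 3.12 without and 6.84 to 20.6 with Tat, and Itgam at 2.46 to 4.31 without and 5.72 to 10.1 with Tat. On this scale all 30 libraries with Tat lay above all 18 without, including those with 4OI. In CPM this held for 25 of the 30 libraries for Itgb2, 26 for Itgal and 22 for Itgam. How many of all genes would separate in the same way was not counted. Between Tat and Tat-4OI the ratios overlapped for Itgb2 (4.31 to 7.72 against 3.99 to 5.53) and Itgam (8.06 to 10.1 against 6.13 to 9.20). They did not overlap for Itgal, at 10.9 to 20.6 with Tat and 7.59 to 10.6 with Tat-4OI. Between Tat-Cocaine and Tat-Cocaine-4OI the ratios overlapped for Itgb2 (3.44 to 6.15 against 4.62 to 5.89), Itgal (6.84 to 15.5 against 9.13 to 12.35) and Itgam (6.96 to 8.17 against 8.09 to 9.31). The sum is itself not fixed, since 2 of the 12 markers were higher and 1 lower in Tat than in Control (median log2 difference 0.44). With 4OI 2 were lower in Tat cultures (median -0.96) and 4 in Tat-Cocaine cultures (median -0.72), and 0 were higher in either.

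**Figure D3:**
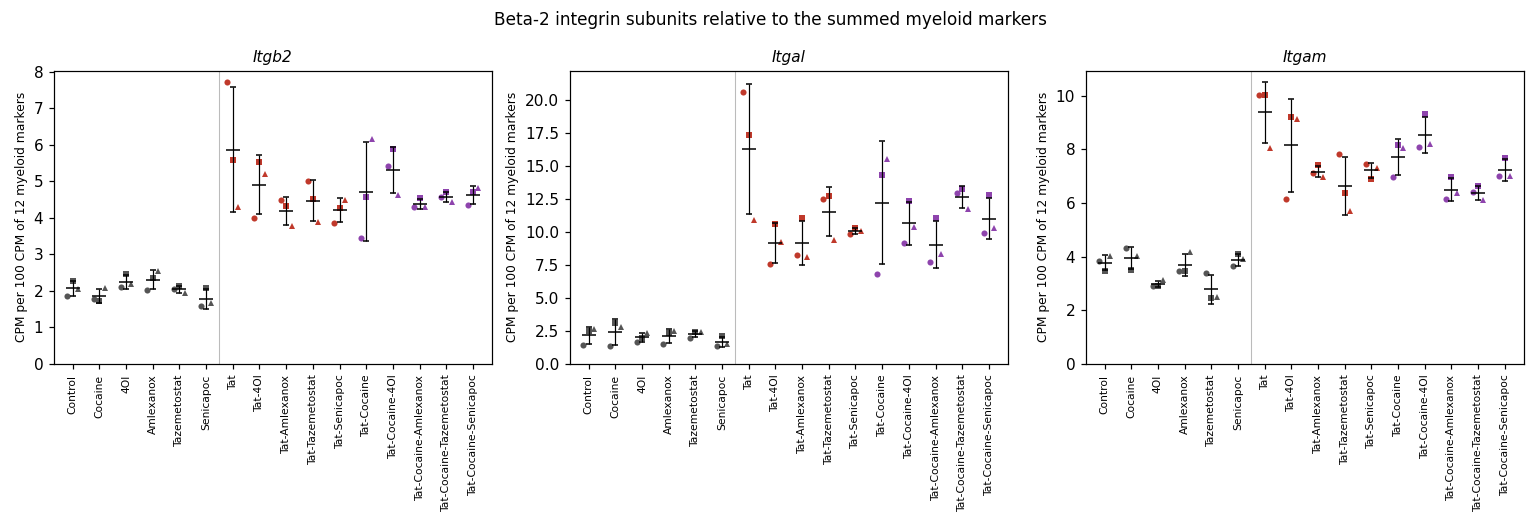
Itgb2, Itgal and Itgam per 100 CPM of 12 summed myeloid markers in each library by group (symbols as in the plot of CPM by library; bars are mean ± SD, n = 3). The 10 groups with Tat lie above the 6 groups without, with 3.44 as the lowest ratio of Itgb2 with Tat and 2.55 as the highest without.

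None of the other compounds moved a member past the threshold in Tat cultures. Tat-Amlexanox against Tat gave 0 of 9 genes, with 2 at an unadjusted p under 0.05 and 0.837% of all genes called. These 2 were Icam1, at 97.9, 137 and 79.3 CPM (log2 difference -0.93, FDR = 0.269), and Cd44, at 359, 382 and 362 CPM (-0.53, FDR = 0.323). Same-numbered libraries deviated together here, and with the replicate block Icam1 passed (FDR = 0.0252), which made 1. What a replicate number stands for is not known, so this call is given as an alternative only. Tat-Senicapoc against Tat gave 0 of 9, with 4 at an unadjusted p under 0.05 and 0.409% of all genes called. Icam1 was at 73.0, 109 and 115 CPM (log2 difference -1.004, FDR = 0.170) and Cd44 at 365, 328 and 312 CPM (-0.66, FDR = 0.150), while Sele (0.54, FDR = 0.215) and Itga4 (0.80, FDR = 0.211) had positive differences. Tat-Tazemetostat against Tat gave 0 of 9, with 0 at an unadjusted p under 0.05 and 0% of all genes called. The 95% interval of the Icam1 difference was -1.70 to -0.17 with Amlexanox and -1.77 to -0.24 with Senicapoc, so a missed threshold does not show that these cultures were like Tat alone.

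In the presence of each of these compounds Tat raised Icam1, Vcam1, Selp, Itgb2, Itgal, Itgam and Cd44. The count was 7 of 9 in Tat-Amlexanox against Amlexanox (39.6% of all genes called), 7 in Tat-Tazemetostat against Tazemetostat (16.1%) and 7 in Tat-Senicapoc against Senicapoc (16%). The log2 fold change of Itgal was 2.41 ± 0.56, 2.78 ± 0.56 and 3.47 ± 0.56 in these comparisons, and that of Icam1 1.52, 1.63 and 1.51 (SE 0.38 in each). Cd44 rose by 1.15 ± 0.23 on the log2 scale under Amlexanox, where the compound alone had 106, 235 and 182 CPM. The count was 4 without Amlexanox replicate 1, 4 without Tat-Amlexanox replicate 2, and 4 without Tazemetostat replicate 3. Itgb2 under Amlexanox passed in 1 of 6 fits that left out a library (FDR up to 0.144), and under Tazemetostat Selp passed in 2 of 6 (FDR up to 0.148) and Itgb2 in 4 of 6 (FDR up to 0.135). Against the response without the compound, Cd44 under Amlexanox had a difference of -1.17 ± 0.33 (95% interval -1.83 to -0.50, FDR = 0.0521). The interaction passed in 0 of 9 genes for Amlexanox (1 at an unadjusted p under 0.05, 1.84% of all genes called), 0 for Tazemetostat (0, 0%) and 0 for Senicapoc (1, 0%). Without Amlexanox replicate 1, whose Cd44 was below that of the other libraries, the difference for Cd44 was -1.49 (FDR = 0.00380), and without Control replicate 1 it was -1.17 (FDR = 0.0478).

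The compounds given alone moved 0 of the 9 genes against Control. The share of all genes called was 3.15% for 4OI, 11.4% for Amlexanox, 0% for Tazemetostat and 0% for Senicapoc, and 1, 1, 0 and 0 of the 9 had an unadjusted p under 0.05. For 4OI this was Itgam, at 46.3 ± 23.02 CPM (SD) against 78.6 ± 20.8 CPM (log2 difference -0.83, FDR = 0.347). For Amlexanox it was Cd44 (0.64, FDR = 0.0669), which passed against Control without Amlexanox replicate 1 (log2 fold change 0.96, FDR = 0.00378).

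With Tat and cocaine, Tazemetostat was the compound with a call. In Tat-Cocaine-Tazemetostat against Tat-Cocaine 1 of 9 genes was higher, a smaller share than the 28.7% called over all genes. The single call is therefore not read as a result about the members. Itga4, the α4 chain of the VCAM-1 receptor, was at 1.32, 0.901 and 2.05 CPM in Tat-Cocaine and at 3.48, 2.96 and 2.87 CPM with Tazemetostat (log2 fold change 0.94 ± 0.33, FDR = 0.0344). The groups did not overlap, but the call was lost without any library other than Tat-Cocaine replicate 3 (FDR = 0.0512 to 0.161). Without Tat-Cocaine replicate 3 the count was 2. Icam1 was at 218, 256 and 194 CPM (log2 difference 0.72, FDR = 0.140), Itgal at 520, 733 and 419 CPM (1.21, FDR = 0.0977), Itgb2 at 183, 261 and 159 CPM (1.06, FDR = 0.0673) and Itgam at 258, 366 and 219 CPM (0.80, FDR = 0.115). All 3 libraries were above those of Tat-Cocaine for these genes, a description without the share of all genes that separate in this way. The myeloid markers were higher in the same cultures, at 3580 to 5522 CPM against 1479 to 2504 CPM, with 8 of 12 called higher (median log2 difference 1.12). In the same comparison 6 of 8 neuronal markers (median -1.03) and 3 of 6 oligodendrocyte markers (median -1.94) were lower, and the part of these shifts was not tested. Amlexanox gave 0 of 9 (1 at an unadjusted p under 0.05, 0.925% of all genes) and Senicapoc 0 of 9 (2, 0.0441%). Without Tat-Cocaine replicate 3 these counts were 1 and 2.

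**Figure D4:**
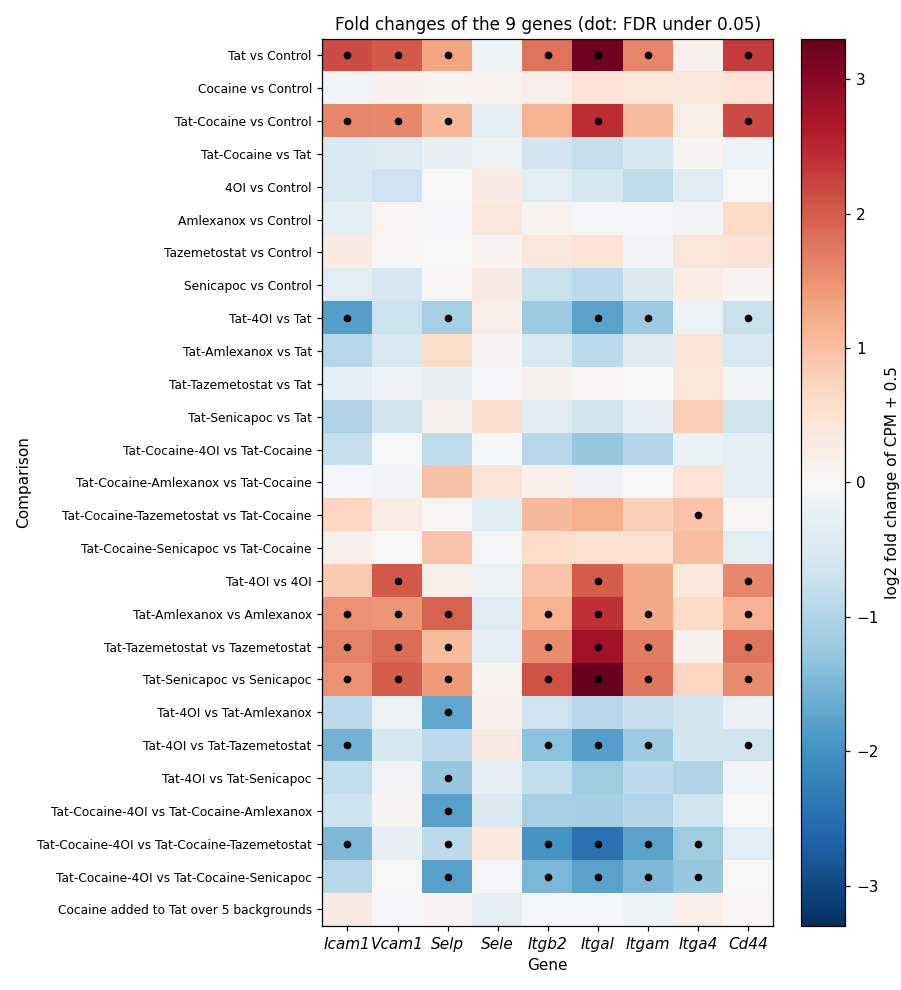
Log2 fold change of CPM + 0.5 for the 9 genes (columns) in 27 comparisons (rows), red for higher and blue for lower in the first group, with a dot at FDR under 0.05. Tat against its own background gives 7 dots in Control, Amlexanox, Tazemetostat and Senicapoc cultures and 3 in 4OI cultures.

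The compounds were also compared with each other, in 6 pairs of groups that each hold 4OI, at the single dose of each. Tat-4OI was below Tat-Tazemetostat in 5 genes (16.1% of all genes called), which were Icam1 (log2 difference -1.55, FDR = 0.00521), Itgal (-1.81), Itgb2 (-1.35), Itgam (-1.20) and Cd44 (-0.66, FDR = 0.0485). It was below Tat-Amlexanox in 1 gene (13.7%), Selp (-1.71 ± 0.32, FDR = 0.000458), and below Tat-Senicapoc in 1 gene (8.43%), again Selp (-1.25 ± 0.32, FDR = 0.0107). The count against Tat-Tazemetostat fell to 0 when Tat-4OI replicate 1 or Tat-Tazemetostat replicate 2 was left out, and to 1 when Tat-4OI replicate 3 was. Against Tat-Senicapoc it was 0 without Tat-4OI replicate 3 or Tat-Senicapoc replicate 3, and 2 without Tat-4OI replicate 2 or Tat-Senicapoc replicate 1. Against Tat-Amlexanox it was 2 without Tat-4OI replicate 2. Of the myeloid markers 6, 2 and 2 of 12 were lower with 4OI in these comparisons.

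With cocaine added, Tat-Cocaine-4OI was below Tat-Cocaine-Tazemetostat in 6 genes (24.4% of all genes called). They were Itgal (log2 difference -2.45 ± 0.56, FDR = 0.00171), Itgb2 (-1.97), Itgam (-1.78), Icam1 (-1.49), Itga4 (-1.16) and Selp (-0.86, FDR = 0.0462). It was below Tat-Cocaine-Senicapoc in 5 genes (12.5%), Selp (-1.78 ± 0.32, FDR = 0.000184), Itgal (-1.76), Itgb2 (-1.51), Itgam (-1.47) and Itga4 (-1.24, FDR = 0.0108). In both of these comparisons same-numbered libraries deviated together, and with the replicate block Icam1 passed against Tat-Cocaine-Senicapoc as well (FDR = 0.00776), which made 6. In neither comparison did every library correlate best with its own number. Against Tat-Cocaine-Amlexanox 1 gene was lower (8.86%), Selp (-1.78 ± 0.32, FDR = 0.000317), and the count was 4 without Tat-Cocaine-4OI replicate 2. Without Tat-Cocaine-4OI replicate 2, the library with more myeloid markers, the counts against Tazemetostat and Senicapoc were 6 and 6, and without replicate 1 they were 3 and 1. Against Senicapoc the count was also 1 without Tat-Cocaine-4OI replicate 3 and 2 without Tat-Cocaine-Senicapoc replicate 2. All 12 myeloid markers were lower with 4OI than with Tazemetostat, and 8 than with Senicapoc, in the cultures given Tat and cocaine. Vcam1 and Sele passed in 0 of the 6 comparisons.

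Selp, stored in granules of endothelial cells and platelets, had few reads. They numbered 0 to 2 in each of the 18 libraries without Tat, 10 of which were at 0, and 0 to 53 in the 30 libraries with Tat (median 18), 2 of which were at 0. Tat-Amlexanox had 1.78, 0.924 and 1.66 CPM, against 0 CPM in all 3 libraries of Amlexanox alone. The ratio, scaled for library size, was 38.1 with 3 reads over the Amlexanox group put in place of 0. It leaves out the counting error of the 88 reads in Tat-Amlexanox and the spread between libraries, and is not a lower bound. Tat-Cocaine-Amlexanox had 2.31, 0.878 and 1.79 CPM and Tat-Cocaine-Senicapoc 2.03, 0.912 and 1.97 CPM, the highest group means at 1.66 ± 0.72 and 1.64 ± 0.63 CPM (SD, n = 3). With 4OI the means were 0.0894 ± 0.0818 CPM in Tat-4OI and 0.113 ± 0.157 CPM in Tat-Cocaine-4OI.

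**Figure D5:**
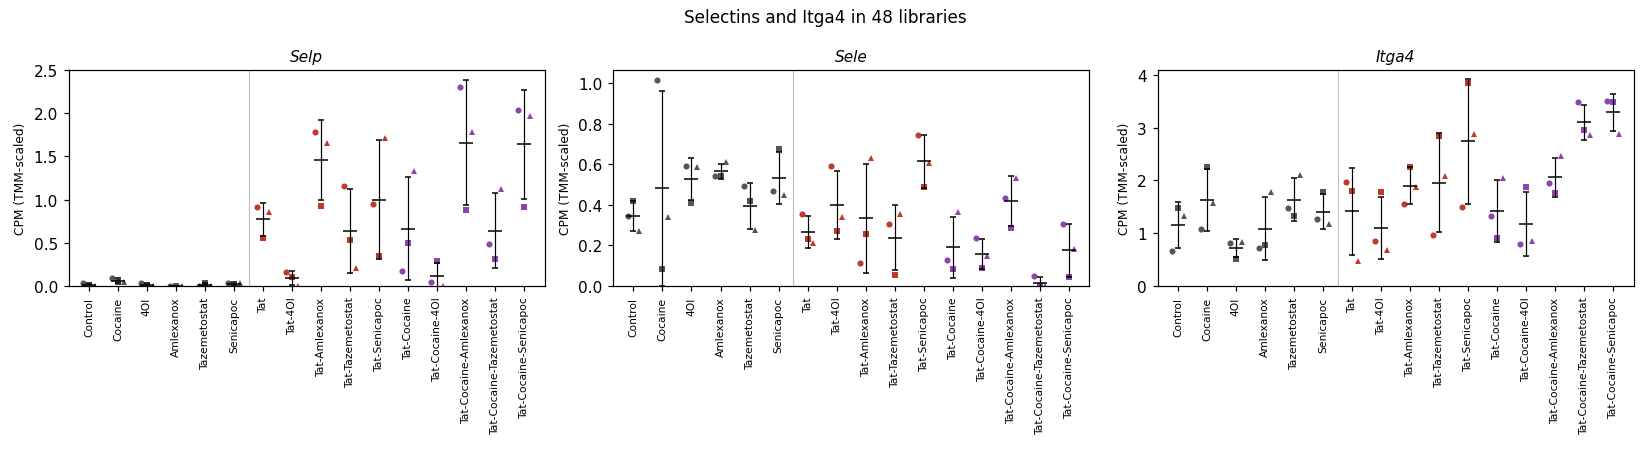
CPM of Selp, Sele and Itga4 in each library by group (symbols as in the plot of CPM by library; bars are mean ± SD, n = 3). Selp lies at 0.0944 CPM or below without Tat and reaches 2.31 CPM with Tat, and Sele stays at or below 1.01 CPM.

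Over all 16 groups the order of the mean levels was similar at its upper end for the β2 integrins. Tat-Cocaine-Tazemetostat, Tat-Tazemetostat and Tat were the 3 highest groups for Itgal (557 ± 160, 445 ± 228 and 425 ± 175 CPM), Itgam (281 ± 76, 248 ± 94 and 248 ± 90 CPM) and Itgb2 (201 ± 53, 169 ± 72 and 151 ± 47 CPM). Among the 10 groups with Tat those with 4OI were the lowest for all 3, at 127 ± 67 and 120 ± 94 CPM for Itgal, in Tat-4OI and Tat-Cocaine-4OI. The lowest mean of all was in Senicapoc cultures for Itgal (25.6 ± 14.6 CPM) and Itgb2 (26.9 ± 12.98 CPM) and in 4OI cultures for Itgam (46.3 ± 23.02 CPM). Icam1 ran from 223 ± 32 CPM in Tat-Cocaine-Tazemetostat to 30.7 ± 3.6 CPM in 4OI cultures. In none of the 15 pairs of neighbours in the order did the libraries separate for Icam1, Itgb2, Itgal, Itgam or Itga4. For Vcam1 they separated in 1, between Tat-Senicapoc (419 ± 16 CPM), the lowest group with Tat, and Cocaine (191 ± 91 CPM). For Cd44 they separated in 1 as well, between Tat-4OI (323 ± 81 CPM) and Amlexanox (174 ± 65 CPM). Sele separated in 1 pair, with Tat-Cocaine-Tazemetostat (0.0161 ± 0.0279 CPM) as the lowest group, and Itga4 was highest in Tat-Cocaine-Senicapoc (3.29 ± 0.35 CPM).

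The genes with the most similar levels differed between the members. Those of Icam1 were Relb (r = 0.978), Tnfaip2 (0.978) and Nfkb2 (0.977), and those of Cd44 were Upp1 (0.978), Ccl7 (0.969) and Ccl2 (0.968). For Vcam1 they were Tf (0.962), which encodes transferrin, and the class I histocompatibility genes RT1-CE1 (0.953) and RT1-CE7 (0.952). For Itgb2 they were the Fc receptor gene Fcgr3a (0.976), Anxa3 (0.974) and Ctsz (0.973), for Itgal Piezo1 (0.986), P2ry6 (0.981) and Rac2 (0.977), and for Itgam Ly86 (0.980), Csf2ra (0.972) and Pik3ap1 (0.970). The highest r was lower for Itga4 (St14, 0.859) and Sele (Nox1, 0.859). Itgb2 itself had r = 0.971 with Itgal and 0.971 with Itgam. These are correlations of log2 values over 48 libraries, which share the treatment groups and the cell makeup of each culture. With the group means taken out, Icam1 kept r = 0.944 with Relb and 0.957 with Nfkb2, and Itgb2 0.947 with Itgal and 0.957 with Itgam. Selp and Itgb2 went from 0.651 to -0.02.

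The other genes of leukocyte adhesion, from lists that hold 74 genes of the table, 71 of them tested, are given beside the members. In Tat against Control 24 were higher and 5 lower, or 40.8% called against 21.3% of all genes. In Tat-4OI against Tat 1 was higher and 12 lower, or 18.3% against 15.6%. With 4OI added to Tat-Cocaine 1 was higher and 5 lower, or 8.45% against 7.36%. With 4OI the share called was thus near that over all genes on both backgrounds. By list, the share called with 4OI in Tat cultures was 40% for selectins and their ligands, 0% for immunoglobulin and junction molecules, 20% for other integrin subunits, 21.4% for integrin activation and 13.3% for hyaluronan and Cd44 partners, each of 10 to 20 genes. In the same order these shares were 20%, 0%, 5%, 7.14% and 13.3% with 4OI in Tat-Cocaine cultures. For Tat against Control they were 40%, 16.7%, 45%, 42.9% and 53.3%. The median log2 difference of the 71 genes together was 0.22 in Tat against Control. With 4OI it was -0.27 in Tat cultures and -0.07 in Tat-Cocaine cultures. The medians over all genes tested lay within 0.01 of 0 in these comparisons. Of 10 genes for selectins and their ligands, 4 rose with Tat, among them Gcnt1 (log2 fold change 1.55) and Fut4 (0.77), enzymes that build selectin-binding glycans. With 4OI in Tat cultures 4 fell, with Fut4 at -0.82 and Podxl at -0.76, and in Tat-Cocaine cultures 1 rose, Glg1 (0.25), and 1 fell. Of 12 tested immunoglobulin and junction adhesion molecules 0 rose and 2 fell with Tat, Jam3 (-0.57) and Jam2 (-0.52), and 0 passed with 4OI on either background.

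Of 20 other integrin subunits tested, 7 rose and 2 fell with Tat. Itgax, the αX chain that also pairs with β2, went from 2.24 to 26.1 CPM (log2 fold change 3.17, FDR = 4.85e-06). Itgb8 (2.08), whose integrin activates latent TGF-β, and Itga5 (2.05), a fibronectin receptor chain, rose too. With 4OI in Tat cultures 1 rose and 3 fell, Itgb8 (-1.12), Itga7 (-1.07) and Itga5 (-0.90), and in Tat-Cocaine cultures 1 fell, Itga7 (-0.74). Of 14 genes of integrin activation 6 rose with Tat, among them the adaptors Fyb1 (1.87) and Apbb1ip (1.09) and the kindlin Fermt3 (1.16). With 4OI 3 fell in Tat cultures, Fyb1 (-1.98), Apbb1ip (-1.22) and Skap2 (-1.13), and 1 in Tat-Cocaine cultures, Apbb1ip (-1.23). Of 15 hyaluronan and Cd44 partner genes 7 rose and 1 fell with Tat. Cd74, the invariant chain that can form a receptor with CD44, went from 2.86 to 182 CPM (log2 fold change 6.03), and Has2, a hyaluronan synthase, from 1.63 to 20.9 CPM (3.47). Lyve1, a hyaluronan receptor of border macrophages and lymphatic vessels, fell from 156 to 45.5 CPM (-1.82). With 4OI 2 fell in Tat cultures, Cd74 (-3.38) and Lyve1 (-1.92), and 2 in Tat-Cocaine cultures, Cd74 (-2.18) and Lyve1 (-3.64).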

How the data were processed

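RNA was measured in 48 libraries of 16 groups, 3 each, named by the labels. The authors prepared strand-specific poly(A) libraries, aligned reads to the rat genome with STAR, counted reads per gene with featureCounts and normalized them with TMM in edgeR. The submitters' processing notes list STAR 2.7.2, Subread 1.5.3, SAMtools 1.5 and Trim Galore 0.4.5. Since the sources name different rat builds, no position was taken from the table. The signal that the authors deposited is CPM on this scale, and adds up to 930399 to 1046892 per library. Of the values above 0, 84.3 to 87.3% were whole reads within 0.02 read, so a count test was not run. The authors' 16 group means and 180 columns of their own comparisons (fold changes, p-values and FDR) were not used.

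Values were analysed as log2(CPM + 0.5) with limma 3.58.1 in R 4.3.3, with a mean per group, 1 fit to all 48 libraries, a trend and no covariates, on the 15890 genes that reached 0.5 CPM in 3 or more libraries. The threshold was a two-sided Benjamini-Hochberg FDR of 0.05 over all genes, in 31 comparisons. The fit was also run on simulated data with independent noise for each value. Such data lack shifts shared by the genes of a library, so that run cannot show that the error rate holds here. An exact permutation test of 3 against 3 cannot go below p = 0.1. The share of all genes whose libraries did not overlap between groups was not computed, so a lack of overlap in a member is a description. The minimum of 0.5 CPM corresponds to 8.58 to 14.96 reads, by library. Libraries with the same replicate number were taken as paired where the deviations from the group means correlated above 0.1 in all 3 pairs, which held in 8 of 26 comparisons of 2 groups, Tat-Cocaine against Control among them (r = 0.507, 0.201 and 0.545). The replicate block was a term fitted to all 48 libraries, with and without pairing, and not a paired test of 2 groups. The pairing was read from the same data. Every library correlated best with its own number in 5 of the 26 comparisons, so a factor shared by a number was not shown. The members and lists were chosen with earlier results of these data known. Of the other adhesion genes those named have the 3 largest changes among those called per list and comparison, and the most similar genes are the 3 with the highest r. Results for 1 gene of these lists are not reported here. Protein sequences were not analysed here.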

Additional observations from a re-analysis of the deposited data

How the results depend on the processing

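The 7 calls in Tat against Control were kept with a pseudocount of 0.1 or 1, with no minimum, with either rescaling, in each smaller fit and without any single library, and 6 were kept at a minimum of 2 CPM, at which Selp could not be tested. Over the 31 comparisons the count of members called stayed within 1.5 times in 478 of 553 comparisons with an alternative. A count of 0 that stayed at 0 is among the 478, so this number says little about the comparisons with calls. Without 1 library the count ran from 1 to 6 in Tat-4OI against Tat and stayed at 7 in Tat against Control. Of 72 single results near or past the threshold 0 changed direction. The median log2 fold change of all genes lay within 0.08 of 0 in every comparison under each scaling.

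Of the alternatives, a fit to the compared groups alone gave 2 members in Tat-Cocaine against Control, 2 in Tat-4OI against Tat, 4 in Tat-Cocaine-Tazemetostat against Tat-Cocaine, 0 in Tat-4OI against Tat-Tazemetostat, 0 against Tat-Senicapoc, 2 in Tat-Cocaine-4OI against Tat-Cocaine-Senicapoc, and 1 for cocaine added to Tat. The fit to 21 libraries gave 2 in Tat-4OI against Tat. A pseudocount of 0.1 gave 1 in Tat-Cocaine-4OI against Tat-Cocaine, 2 in Tat-Cocaine-Tazemetostat against Tat-Cocaine and 1 for cocaine added to Tat, and a pseudocount of 1 gave 2 in Tat-4OI against Tat-Senicapoc. With no minimum the count was 0 in Tat-Cocaine-Tazemetostat against Tat-Cocaine and 2 in Tat-4OI against Tat-Tazemetostat. At 2 CPM it was 0 in Tat-4OI against Tat-Amlexanox, in Tat-4OI against Tat-Senicapoc and for Tat-Cocaine-4OI set against Tat-Cocaine-Amlexanox, since Selp was no longer tested, and 1 for the interaction of Tat and Amlexanox. Beyond these the cause was not tested. The share of all genes called is not given here for the alternatives, the replicate block or the fits without a library. A changed count under them is therefore not read as a result about the members.

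With the replicate block the count was 1 in Amlexanox against Control, Tat-Amlexanox against Tat and Tat-Senicapoc against Tat, 3 in Tat-Cocaine-4OI against Tat-Cocaine, 5 in Tat-Cocaine-Tazemetostat against Tat-Cocaine, 5 in Tat-4OI against 4OI, 3 and 5 in Tat-4OI against Tat-Amlexanox and Tat-Senicapoc, 5 in Tat-Cocaine-4OI against Tat-Cocaine-Amlexanox, and 1 for the interactions of Tat with 4OI and Amlexanox and for cocaine added to Tat. In the 8 comparisons with pairing it changed calls in Tat-Cocaine against Control (7), Tat-Amlexanox against Tat (1) and Tat-Cocaine-4OI against Tat-Cocaine-Senicapoc (6), and no other call. In the 18 comparisons without pairing the libraries share only a number, and in 0 of them did every library correlate best with its own number. Among the 8 with pairing this held in 5. It did not hold in Senicapoc against Control, or in Tat-Cocaine-4OI against Tat-Cocaine-Tazemetostat or Tat-Cocaine-Senicapoc.

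Leaving out 1 library gave 3 to 5 members in Tat-Cocaine against Control, 1 to 6 in Tat-4OI against Tat, 1 to 4 in Tat-4OI against 4OI, 4 to 8 and 4 to 7 in the Tat responses under Amlexanox and Tazemetostat, 0 to 3 in Tat-Cocaine-4OI against Tat-Cocaine, and 0 to 1, 0 to 2 and 0 to 2 in Amlexanox, Tazemetostat and Senicapoc added to Tat-Cocaine. It gave 0 to 1 in Amlexanox against Control, in the interaction of Tat and Amlexanox and for cocaine added to Tat. In Tat-4OI against Tat-Amlexanox, Tat-Tazemetostat and Tat-Senicapoc it gave 1 to 2, 0 to 6 and 0 to 2, and in Tat-Cocaine-4OI against the same compounds 1 to 4, 3 to 6 and 1 to 6. Depth limits Selp, Sele and Itga4, which had few reads.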

Other observations

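Replicate 2 was the highest library of its group in 14 of 16 groups for Icam1, Itgb2 and Itgal, in 13 for Vcam1 and Itgam and in 12 for Cd44. For Itga4 it was the highest in 8, and for Selp and Sele in 2 each. The labels do not say what a replicate number stands for.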
